A study of Mus musculus with 4 samples.

Results

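The genes described here are 31 genes of cholesterol and fatty acid synthesis, out of 22289 genes with a RefSeq name on the array. They were taken by symbol from a list defined by function, and each gene was represented by its brightest probe. All 31 were found, Msmo1 under its older name Sc4mol, and all 31 were well above background on each of the 4 arrays. The list holds 17 enzymes of cholesterol synthesis, 10 genes of fatty acid synthesis and its carbon supply, the regulators Insig1, Srebf1 and Srebf2, and the sterol carrier Stard4.

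Cholesterol and fatty acids are both built from cytosolic acetyl-CoA. The mevalonate steps turn acetyl-CoA into isoprenoid units, the squalene steps join and close them into lanosterol, and a further series of enzymes converts lanosterol to cholesterol. Acetyl-CoA carboxylase and fatty acid synthase make palmitate from the same precursor, and elongases and desaturases then modify its chain. The transcription factors SREBP-1 and SREBP-2, encoded by Srebf1 and Srebf2, activate most of these genes when sterols are low, and Insig proteins hold the SREBP precursors in the endoplasmic reticulum when sterols are high. In the colon the epithelium renews continuously and needs membrane lipid, and lipogenic enzymes are often high in colon tumors.

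The samples were 4 pools of colon RNA, one for each combination of genotype and treatment, and each pool was hybridized to 1 single-color array, with no replicate. The mice were males of 42 weeks on the background given as B6.129 (n3), after 3 generations of backcross, either Pla2g3+/+ or Pla2g3-/-, littermates in which the gene of group III secreted phospholipase A2 was intact or disrupted. Azoxymethane (AOM), a carcinogen that gives rise to colon tumors, was injected at 10 mg/kg weekly for 6 weeks, and colons were taken 28 weeks after the last dose, whereas the vehicle groups received saline. By the deposited description each pool held tissue of 3 to 5 mice, whereas a figure legend of the study gives a single number within that range, and the size of each pool is not known. The tissue of the AOM groups was the whole descending colon according to a figure legend of the study and cancer tissue according to the deposited description, so the share of tumor in a pool is not known. The array signal of the targeted gene went against its label, whereas the study reports no staining of its protein in Pla2g3-/- colon by immunohistochemistry. With vehicle, the Pla2g3 signal was 343 in wild-type mice and 426 in the labeled knockout, and with AOM it was 304 and 1632. Whether its probe lies in the disrupted part is not given in the sources used here, and the genotype is therefore written as labeled.

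The precision was limited by the number of arrays. Between 64.8% and 69.4% of 43020 spots were well above background, no spot was saturated, and the spots that repeat a probe had a median SD of 0.0575 to 0.0669 (log2) on an array. The error that the scanner software assigns to a member's spot was 10% to 11.6% of its signal. These errors do not include the spread between mice. A ratio of 2-fold, the threshold of the study, is therefore used here as a size and not as a test. The 75th percentile of the array, by which signals were divided, was 645.7 (Pla2g3+/+) and 649.9 (labeled Pla2g3-/-) for the vehicle arrays and 1309 and 1169 for the AOM arrays. Values below are scaled signals in this sense, and pairs of values at one treatment give Pla2g3+/+ first and the pool labeled Pla2g3-/- second, while pairs within one genotype give vehicle first and AOM second.

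Several of these genes share a CCAAT sequence close to their start, and the sequences are shown because they are a feature that the choice of genes did not use. Promoter windows of 300 bases, 250 before and 50 after the start, were available from RefSeq (GRCm38.p6) for 24 members, in 30 windows. Fads1, Fdft1, Fdps, Scd1, Scd2, Sqle and Stard4 had none. The letters CCAAT, on either strand, occurred in 22 of the 30 windows (73.3%), in 21 of 24 genes, and in 37.4% of all 32851 windows. Acaca, Elovl6 and Fads2 had no match. The GC box letters GGGCGG also occurred in 22 of 30 windows (73.3%), against 35.7% of all windows. The E-box letters CACGTG occurred in 4 of 30 windows (13.3%), those of Dhcr7, Hsd17b7, Insig1 and Sc5d, against 7.15% of all windows. The sterol regulatory element, searched as TCACNCCAC on both strands, was found in 1 of 30 windows (3.33%), that of Hmgcs1, against 1.24% of all windows. No match of one motif overlapped a match of another in the members' windows. A match is a description of the letters and says nothing of whether a factor binds there.

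For 8 members, the match closest to the start among those that begin more than 15 bases before it is printed below, each on the strand of its gene, with CCAAT or its reverse complement ATTGG in capitals, together with the sterol regulatory element of Hmgcs1 with that element in capitals.
Hmgcs1 sterol element, chr13:119690204-119690232, plus strand: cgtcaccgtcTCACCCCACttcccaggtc
Hmgcs1, chr13:119690294-119690322, plus strand: tccccgcctctcATTGGctgaaagcggat
Idi1, chr13:8885549-8885577, plus strand: tgcctccagctgATTGGcgagcccgggca
Mvd, chr8:122443433-122443461, minus strand: ccggccagcgggCCAATcatatggcagcg
Lss, chr10:76531531-76531559, plus strand: ggtgatgctctgATTGGccgagctcgcat
Msmo1, chr8:64733617-64733645, minus strand: gagtggggcggaCCAATtacgacaggcga
Tm7sf2, chr19:6067881-6067909, minus strand: ctcccagcgctgATTGGctactgtgctgg
Acss2, chr2:155517958-155517986, plus strand: gccctacccactATTGGatgcctagagca
Fasn, chr11:120824590-120824618, minus strand: cctcggtgtCCAATTGGtttcgatgtgga
The first capital letter lies 45 bases before the start in Hmgcs1 and Idi1, and between 27 and 73 bases before it in Mvd, Lss, Msmo1, Tm7sf2 and Acss2. In Fasn a match on each strand overlaps in the run CCAATTGG. These 8 genes did not share a direction in the comparisons that follow.

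**Figure D1:**
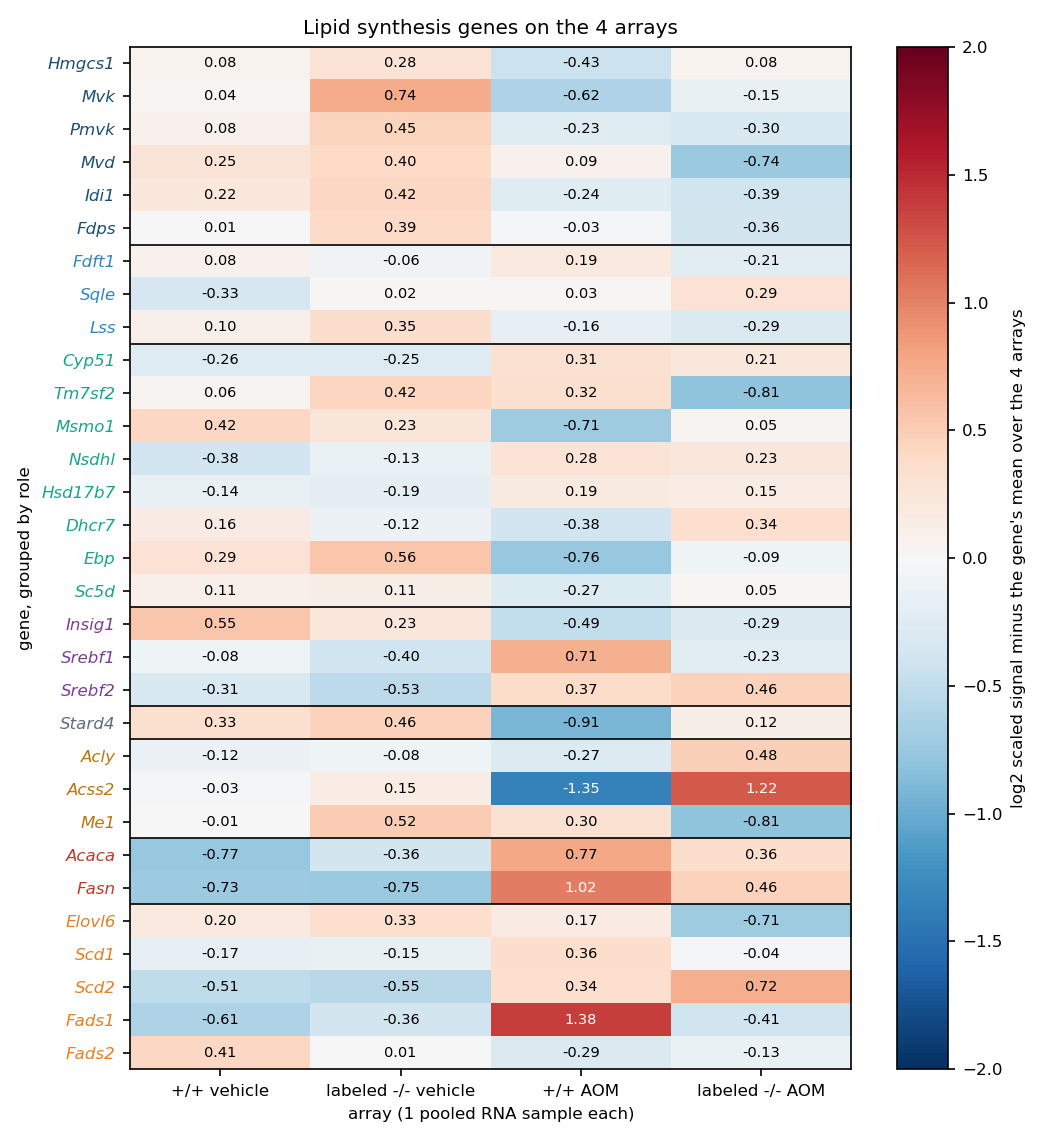
Log2 scaled signal of each of the 31 genes on each of the 4 arrays, minus the mean of that gene over the 4 arrays; rows are grouped by role (color of the gene name, black lines) and columns are the arrays, with the value printed in each cell. Acss2 spans the widest range, from -1.35 in Pla2g3+/+ after AOM to 1.22 in the pool labeled Pla2g3-/- after AOM, and Fads1 stands out in Pla2g3+/+ after AOM at 1.38.

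In vehicle-treated colon, which addresses the effect of genotype without carcinogen, no member differed by 2-fold between the pool labeled Pla2g3-/- and Pla2g3+/+. Over all 16337 genes with a value, 1.92% were higher by more than 2-fold and 1.32% lower. The log2 ratios of the members lay between -0.40 for Fads2 and 0.70 for Mvk, with a median of 0.14 (median of all genes, -0.02). Mvk, mevalonate kinase, had a scaled signal of 6.28 in Pla2g3+/+ and 10.2 in the labeled pool, a ratio of 1.63. Its second probe gave a log2 ratio of 0.42.

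By role, the members differed slightly. All 6 mevalonate genes (Hmgcs1, Mvk, Pmvk, Mvd, Idi1 and Fdps) had ratios above 1 in the labeled pool, with log2 ratios of 0.15 to 0.70, and of all genes 46.8% had a ratio above 1. This held under each scaling, but with the mean over all probes 5 of the 6 were above 1. The 3 regulators lay below 1, at log2 ratios of -0.32 for Insig1, -0.32 for Srebf1 and -0.22 for Srebf2. The sign held under each alternative that gave them a value, but with normexp the log2 ratios were -0.28, -0.14 and -0.11. Srebf1 was dim, with signals before scaling of 75.6 in Pla2g3+/+ and 61.0 in the labeled pool. The SD of the log2 ratio over the members was 0.27 and that over all genes detected on both arrays was 0.36. Among the related genes, Thrsp, a lipogenic nuclear protein of adipose tissue and liver, was 2.11-fold higher in the labeled pool, and no other gene of the 3 pathway lists passed 2-fold. The pool also differed in other tissue: all 6 acinar genes found on the array were over 2-fold higher in it (summed scaled signal 0.31 in Pla2g3+/+ and 9.48 in the labeled pool), as were 4 of 6 hepatocyte genes (5.10 and 10.1) and 1 of 8 adipocyte genes with a value (19.3 and 39.5). Their part in the values of the members was not tested.

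After AOM, the tissue of the pools differed widely, and these values stand beside every comparison that uses the Pla2g3+/+ AOM array. In bulk RNA, fewer cells of a type and less RNA per cell cannot be told apart. The summed scaled signal of 7 smooth muscle genes was 499 in Pla2g3+/+ and 525 in the labeled pool with vehicle, and 29.1 and 477 after AOM. That of 6 colonocyte genes was 657 and 695 with vehicle and 45.8 and 352 after AOM. The 7 goblet genes summed to 1713 and 1681 with vehicle and to 138 and 638 after AOM. Each of these lists was over 2-fold lower after AOM in Pla2g3+/+ for all its genes.

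The opposite held for 9 Wnt targets of colon tumors. They summed to 7.02 and 6.84 with vehicle and to 52.6 in Pla2g3+/+ and 7.95 in the labeled pool after AOM, and all 9 were over 2-fold higher after AOM in Pla2g3+/+. The 6 macrophage genes summed to 9.24 and 11.4 with vehicle and to 18.3 and 8.47 after AOM, and the 7 proliferation genes to 28.1, 34.9, 38.2 and 27.1 in the same order. As a check of the labeled tissue, 7 of 7 epithelial genes were well above background on each array, with sums of 456 and 463 with vehicle and 334 and 455 after AOM. Within this list, Cdx2 was 12.1-fold lower after AOM in Pla2g3+/+ and 5.61-fold lower in the labeled pools. Cdh1 was 2.94-fold higher after AOM in the labeled pools, and the remaining epithelial genes stayed within 2-fold after AOM in both genotypes.

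Of the genes of fat cells, which also make lipid, all 8 with a value were over 2-fold lower after AOM in Pla2g3+/+ and 6 of 7 in the labeled pools. The 9 adipocyte genes summed to 19.3 and 39.5 with vehicle and to 2.29 and 7.97 after AOM, with 8, 7, 4 and 7 of them well above background, and Adipoq, Plin1, Lep, Lipe and Adrb3 were not above background in Pla2g3+/+ after AOM. The 8 enteric neuron and glia genes summed to 2.96 and 3.11 with vehicle and to 0.79 and 1.85 after AOM. The 4 sebaceous genes summed to 0.06 to 0.13 on every array, with at most 3 of them above background. Acinar genes after AOM summed to 0.16 and 0.13, and hepatocyte genes to 4.95 and 3.995. The hepatocyte sums hide opposite changes. Of 5 hepatocyte genes with a value between the AOM pools, 1 was over 2-fold higher in the labeled pool, Ttr (2.25-fold). Alb was the 1 over 2-fold lower, with signals before scaling of 2782 and 12.2, the second not above background. The part of tissue composition in the values below was not tested.

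**Figure D2:**
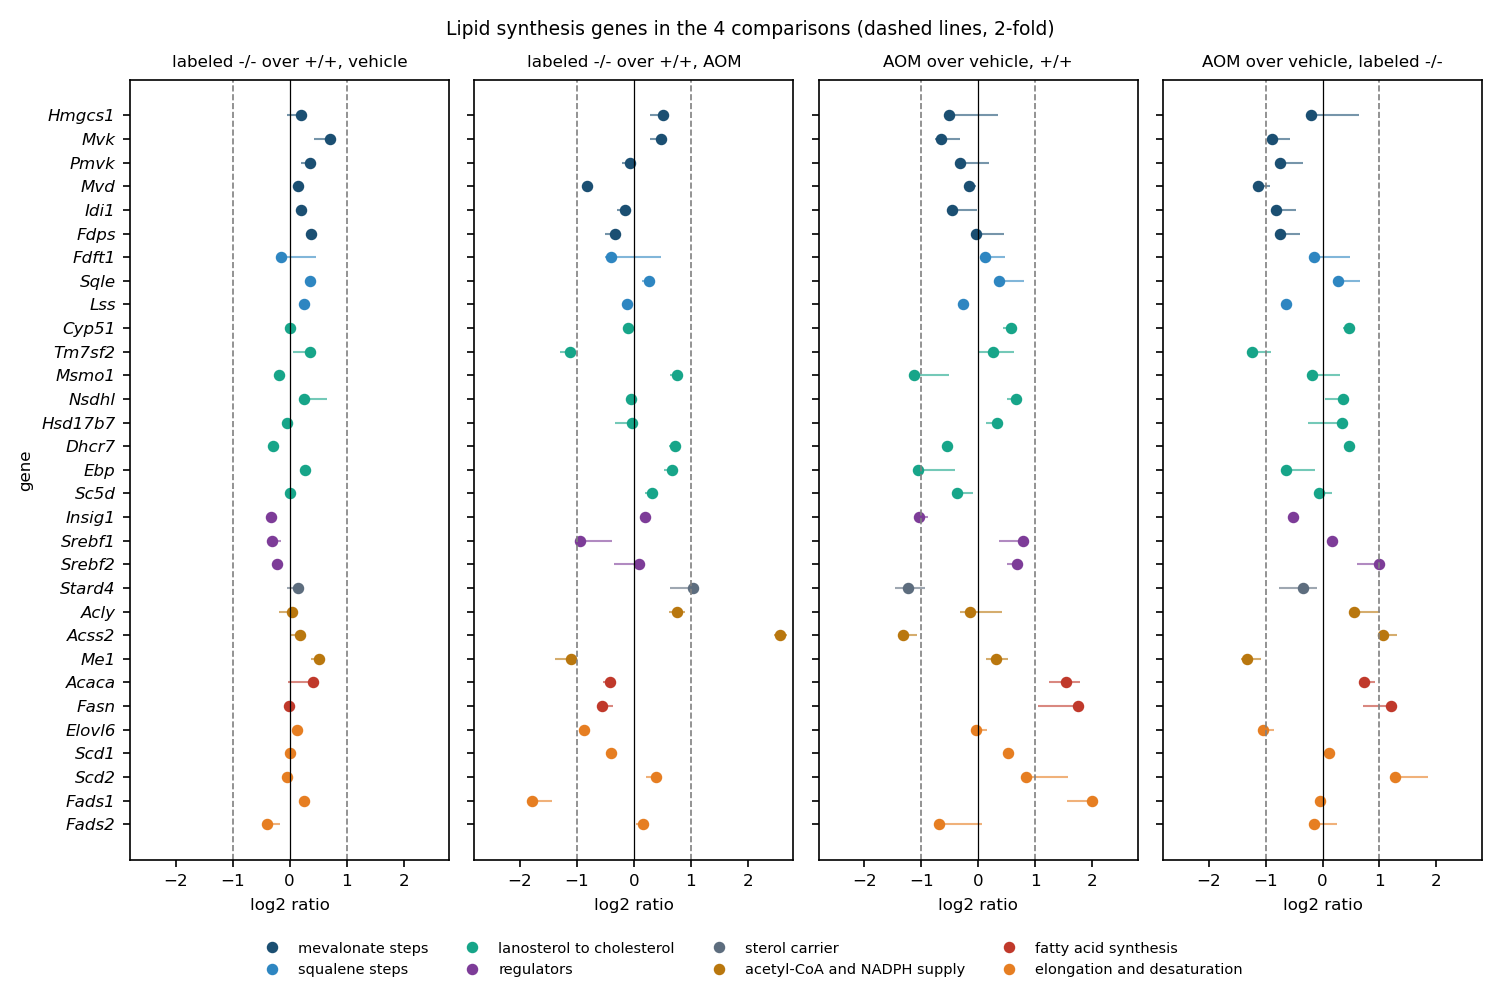
Log2 ratio of each of the 31 genes in the 4 comparisons; points are the values after division by the 75th percentile of the array, horizontal lines span the value and the alternatives other than no scaling, and dashed lines mark 2-fold. In the vehicle comparison all points lie between -0.40 and 0.70, and Acss2 at 2.57 and Fads1 at -1.79 lie farthest out between the AOM pools.

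In the 2 AOM-treated pools, compared to ask how the genotypes differ after the carcinogen, 2 members were over 2-fold higher in the labeled pool and 3 were over 2-fold lower. Over all 17131 genes with a value, 15.1% were higher and 12.9% lower by this size, so 16.1% of the members passed 2-fold and 28% of all genes did. The median log2 ratio of the members was -0.05 and that of all genes 0.03. The SD of the log2 ratio was 0.81 over the members and 1.20 over all genes detected on both arrays.

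Acss2, the cytosolic and nuclear synthetase that makes acetyl-CoA from acetate, differed the most of the members. Its brighter probe lies at mm9 chr2:155388416-155388475, and its scaled signal was 3.10 in Pla2g3+/+ and 3.52 in the labeled pool with vehicle, and 1.24 and 7.38 after AOM. The vehicle arrays were close to each other, Pla2g3+/+ after AOM was the lowest and the labeled pool after AOM the highest, 5.94-fold above it. A second Acss2 probe, 60 bases of which 2 reading frames hold no stop codon, gave a log2 ratio of 2.48 against 2.57 for the brighter probe. That probe is shown because the value of Acss2 rests on it and on the brighter one.
Acss2 probe, mm9 chr2:155387492-155387551, plus strand: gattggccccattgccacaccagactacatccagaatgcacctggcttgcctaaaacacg
Stard4, a carrier that moves sterols between membranes, had a scaled signal of 4.89 and 5.39 with vehicle and of 2.07 and 4.25 after AOM. It was 2.05-fold higher in the labeled pool, just past the threshold. The second Stard4 probe gave a log2 ratio of 0.64.

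The 3 genes that were lower in the labeled pool after AOM act at separate steps. Fads1, the delta-5 desaturase that completes arachidonic and eicosapentaenoic acid, had a scaled signal of 0.29 and 0.34 with vehicle and of 1.15 and 0.33 after AOM, and it was 3.45-fold lower in the labeled pool (probe at mm9 chr19:10270530-10270589). Only Pla2g3+/+ after AOM stood apart. Tm7sf2, a sterol delta-14 reductase, had a scaled signal of 5.41 and 6.97 with vehicle and of 6.504 and 2.98 after AOM, 2.19-fold lower, and here the labeled pool after AOM was the array that stood apart.

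Me1, the malic enzyme that supplies NADPH for lipid synthesis, had a scaled signal of 2.49 and 3.57 with vehicle and of 3.08 and 1.43 after AOM, 2.15-fold lower in the labeled pool. Its 3 probes gave log2 ratios of -1.10, -1.16 and -1.88. The last of these, in which 2 reading frames of the 60 bases hold no stop codon, is printed as the probe with the largest difference of the 3.
Me1 probe, mm9 chr9:86480571-86480630, minus strand: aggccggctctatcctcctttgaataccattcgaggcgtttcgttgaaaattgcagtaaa
The other 26 members lay within 2-fold, from -0.94 for Srebf1 to 0.76 for Msmo1 on the log2 scale. Acss2, Fads1, Tm7sf2 and Me1 were past 2-fold under each alternative tried, whereas Stard4 was past it in 5 of 9. Of the cholesterol enzymes 1 of 17 (5.88%) passed 2-fold, and of the fatty acid genes 3 of 10 (30%), where 28% of all genes did.

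Related genes outside the list differed in the same 2 pools. None of the 10 measured genes of the rest of cholesterol synthesis and SREBP regulation passed 2-fold. Of 19 measured genes of fatty acid and glyceride synthesis, 2 were over 2-fold higher in the labeled pool, Acacb, the mitochondrial acetyl-CoA carboxylase (2.39-fold), and Thrsp (4.08-fold). Of 15 genes of sterol efflux, storage and LXR targets, 3 were higher and 3 lower. Abcg5, a subunit of the sterol exporter of the apical membrane, was 7.98-fold higher, and Abca1, the transporter that loads cholesterol onto apolipoprotein A-I, was 3.06-fold lower. The log2 ratios of Abcg1, a further cholesterol exporter, and Ch25h, which makes 25-hydroxycholesterol, were -1.19 and -2.34.

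In Pla2g3+/+ colon, AOM against vehicle addresses the response of wild-type mice to the carcinogen. Of the members, 3 were over 2-fold higher after AOM and 5 over 2-fold lower, where 15.1% of 17214 genes were higher and 22.4% lower. The median log2 ratio of the 31 members was -0.05 (all genes, -0.17), and it became 0.29 with quantile normalization and 0.23 with normexp, so no direction is given for the whole list. This comparison shares 1 array with each of the comparisons between the pools at one treatment, so its ratios are not independent of theirs, and the same holds for AOM against vehicle in the labeled pools.

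The 2 enzymes of palmitate synthesis were both higher. Fasn, fatty acid synthase, had a signal of 82.7 with vehicle and 564.9 after AOM before scaling, and a scaled signal of 0.128 and 0.432, a ratio of 3.37 (probe at mm9 chr11:120667666-120667725). Acaca, acetyl-CoA carboxylase 1, which commits acetyl-CoA to fatty acids, had a scaled signal of 1.81 and 5.25, a ratio of 2.90. The other Acaca probes gave log2 ratios of 1.499, 1.40 and 0.52 against 1.54 for the brightest, and the last of these was well above background on 3 of the arrays. The ratio of Fads1 was 3.99. These 3 genes were past 2-fold under each alternative tried, and they were the only members above it. With normexp the log2 ratio of Fasn, a dim probe with vehicle, was 1.06 against 1.75, just past 2-fold. That of Fads1 was 1.55 against 1.997, and that of Acaca 1.67 against 1.54.

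Scd1 and Scd2, the stearoyl-CoA desaturases that make monounsaturated fatty acids, were higher after AOM by less than 2-fold after scaling, at log2 ratios of 0.52 and 0.85. With quantile normalization and with normexp the ratio of Scd2 was past 2-fold (log2 ratios of 1.56 and 1.57). The other desaturase of the pathway, Fads2, lay at -0.69, and its second probe at 0.06. The elongase Elovl6 had a log2 ratio of -0.03.

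The 5 members that were over 2-fold lower after AOM in Pla2g3+/+ included Acss2 (2.50-fold) and Stard4 (2.36-fold), whose signals on the 4 arrays are given above. Msmo1, the C-4 methylsterol oxidase, had a scaled signal of 26.6 with vehicle and 12.2 after AOM (2.18-fold lower). Ebp, the sterol isomerase that binds emopamil, had 27.1 and 13.0 (2.08-fold lower). Insig1, which retains SREBP precursors, had 1.49 and 0.73 (2.05-fold lower).

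These calls leaned on the scaling. With quantile normalization Msmo1 and Ebp were within 2-fold, at -0.52 and -0.43, and with normexp Insig1 (-0.88) and Stard4 (-0.94) were too, while Acss2 remained past it at -1.08 or lower with any scaling. Without scaling none of the 5 was. All 6 mevalonate genes lay below 1 after scaling by the 75th percentile, at -0.66 to -0.05 on the log2 scale, but 3 of 6 lay above 1 with quantile normalization and with normexp, and all 6 without scaling. Srebf1 and Srebf2, the SREBP genes, had log2 ratios of 0.79 and 0.68 and lay above 1 under each alternative that gave a value.

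Outside the list, 1 of 11 genes of cholesterol synthesis and SREBP regulation passed 2-fold, Insig2, the second Insig protein, which was 2.39-fold lower after AOM and was within 2-fold with normexp and without scaling. Of 19 genes of fatty acid and glyceride synthesis, 1 was higher, G6pdx (2.01-fold), the entry enzyme of the pentose phosphate pathway, and 3 were lower, Thrsp (5.73-fold), Acacb (4.42-fold) and Mlx (3.19-fold), the partner of ChREBP. Of 14 genes of sterol efflux, storage and LXR targets, 5 were higher and 2 lower. Among these, Abca1 and Abcg1 were higher, at log2 ratios of 2.96 and 1.41, and Nr1h3, the receptor LXR-alpha, was lower (-1.69).

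In the pools labeled Pla2g3-/-, AOM against vehicle addresses what changed in the labeled knockout. Of the members, 3 were over 2-fold higher after AOM and 4 over 2-fold lower, where 9.65% of 16454 genes were higher and 15.1% lower. The median of the members was -0.15 (all genes, -0.08) and turned to 0.09 with quantile normalization and to 0.08 with normexp. Scd2, with a scaled signal of 17.8 with vehicle and 43.0 after AOM, was 2.41-fold higher. Fasn, with 0.127 and 0.292, was 2.30-fold higher, and Acss2 was 2.10-fold higher.

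Scd2 and Acss2 were past 2-fold under each alternative tried, and Fasn under 7 of 8, with a log2 ratio of 0.70 for normexp. Acaca was at 0.72 and Srebf2 at 0.99, just below the threshold. Fads1 was at -0.04, with 0.34 and 0.33 on the pair of arrays.

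The 4 members that were over 2-fold lower were Me1 (2.50-fold), Tm7sf2 (2.34-fold), Mvd (2.21-fold) and Elovl6 (2.06-fold). Mvd, the decarboxylase that makes isopentenyl diphosphate, had a scaled signal of 2.24 with vehicle and 1.01 after AOM. Elovl6, which extends palmitate to stearate, had 3.15 and 1.53. Me1 stayed past 2-fold with every scaling, and without scaling it did not (-0.47). Elovl6 was within 2-fold with quantile normalization (-0.92) and with normexp (-0.85), Tm7sf2 just within it with the first and at -0.91 with normexp, and Mvd at -0.92 with normexp. Without scaling none of the 4 was past it.

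The other mevalonate genes were also lower in the scaled values, at -0.89 for Mvk, -0.81 for Idi1, -0.75 for Fdps, -0.74 for Pmvk and -0.20 for Hmgcs1. With quantile normalization and with normexp 1 of the 6 genes lay above 1, and without scaling 4 did. Of 10 measured genes of the rest of cholesterol synthesis none passed 2-fold. Of 19 genes of fatty acid and glyceride synthesis none was higher and 4 were lower, Thrsp (2.96-fold), Slc25a1 (2.26-fold), the mitochondrial citrate carrier, Acacb (2.26-fold) and Agpat2 (2.01-fold), an acyltransferase of phosphatidic acid synthesis, but 2 were lower with quantile normalization, 1 with normexp and 0 without scaling. Of 15 genes of sterol efflux and storage, 5 were higher and 2 lower, among them Abcg5 (8.63-fold higher), Mylip, an LXR-induced ligase for the LDL receptor (log2 ratio of 1.07), and Nr1h3 (-1.13).

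**Figure D3:**
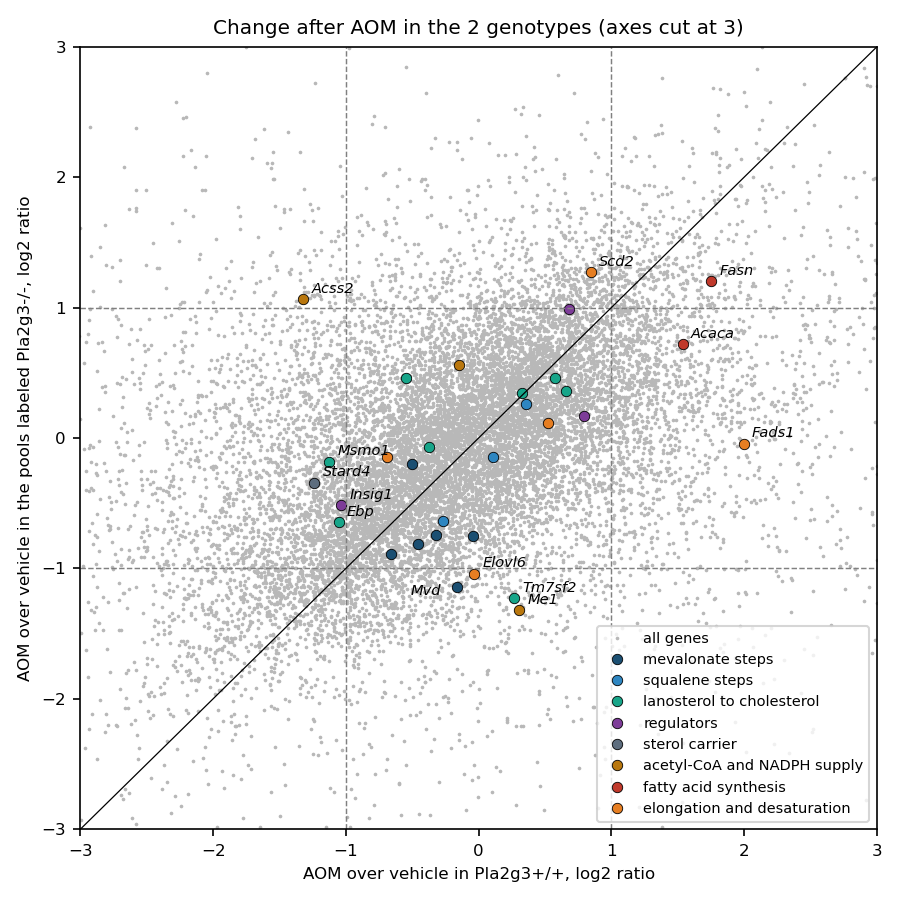
Log2 ratio of AOM over vehicle in Pla2g3+/+ (horizontal axis) and in the pools labeled Pla2g3-/- (vertical axis), which share no array; colored points are the 31 members by role, grey points all genes with both values, dashed lines mark 2-fold, and both axes stop at 3, which leaves 931 of 16055 genes outside. Acss2 lies in the upper left at -1.32 and 1.07, Fads1 at the right at 1.997 and -0.04, and Fasn is the member past 2-fold upwards in both.

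The 2 changes after AOM come from separate arrays and can be set side by side. Of the 31 members, 10 were higher after AOM in both genotypes, 14 lower in both (45.2%) and 7 went opposite ways (22.6%), where 39.9% of 16055 genes were lower in both and 31% went opposite ways. Fasn was over 2-fold higher in both, no member was over 2-fold lower in both, and Acss2 was past 2-fold in opposite directions. Of the 16055 genes, 4678 were higher in both. By more than 2-fold, 614 were higher in both, 1298 lower in both and 371 went opposite ways. The difference between the changes, labeled Pla2g3-/- minus Pla2g3+/+, was past 2-fold for 6 of 31 members (19.4%). Over 15786 genes the share was 29.1% (16.3% higher and 12.8% lower).

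These 6 genes were Acss2 (log2 difference of 2.39), Dhcr7 (1.01), Fads1 (-2.04), Me1 (-1.63), Tm7sf2 (-1.49) and Elovl6 (-1.01). Dhcr7 and Elovl6 were just past 2-fold. With normexp, the log2 ratio between the genotypes was -0.22 with vehicle and 0.62 after AOM for Dhcr7. For Elovl6 it was 0.08 and -0.90, so both differences were within 2-fold with normexp. Dhcr7, which carries out the last reduction to cholesterol, had a scaled signal of 0.95 and 0.78 with vehicle and of 0.65 and 1.08 after AOM. Within the supply of acetyl-CoA and NADPH, the genes parted: Acss2 and Acly, ATP citrate lyase, had differences of 2.39 and 0.71, and Me1 had -1.63. The median difference over the members was -0.23, against 0.08 over all genes, and it was -0.40 without scaling.

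In all 4 comparisons, 18 of the 31 members stayed within 2-fold. The share of all genes that did so was not counted. In a single comparison, 3.24% to 37.5% of all genes with a value passed 2-fold. Among the 18 members were the 3 squalene genes, Fdft1, which joins farnesyl diphosphate into squalene, Sqle, the squalene epoxidase, and Lss, the lanosterol synthase, with log2 ratios from -0.63 to 0.36. Sqle had a scaled signal of 7.29 and 9.33 with vehicle and of 9.35 and 11.2 after AOM. Its ratio after AOM was 1.28 in Pla2g3+/+ and 1.20 in the labeled pools. Of the 8 genes from lanosterol to cholesterol, Cyp51, Nsdhl, Hsd17b7, Dhcr7 and Sc5d also stayed within 2-fold in each comparison.

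Across all genes, an additive model with terms for treatment and genotype was fitted by limma with Benjamini-Hochberg adjustment and called no gene for either factor. At an unadjusted p under 0.05 it counted 2400 of 17811 genes (13.5%) for treatment and 214 (1.2%) for genotype, and the calls after adjustment were 0% of genes for both. Among the members, Fasn was the one with an unadjusted p under 0.05 for treatment (log2 change of 1.48, limma adjusted p = 0.368), and none had one for genotype. With an intensity trend in the prior 5 members had an unadjusted p under 0.05 for treatment, and with quantile normalization 2 did, while no gene was called after adjustment in either (3038 and 2080 genes unadjusted for treatment, 83 and 220 for genotype). With 1 residual degree of freedom, this fit takes any difference in response between the genotypes as error.

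**Figure D4:**
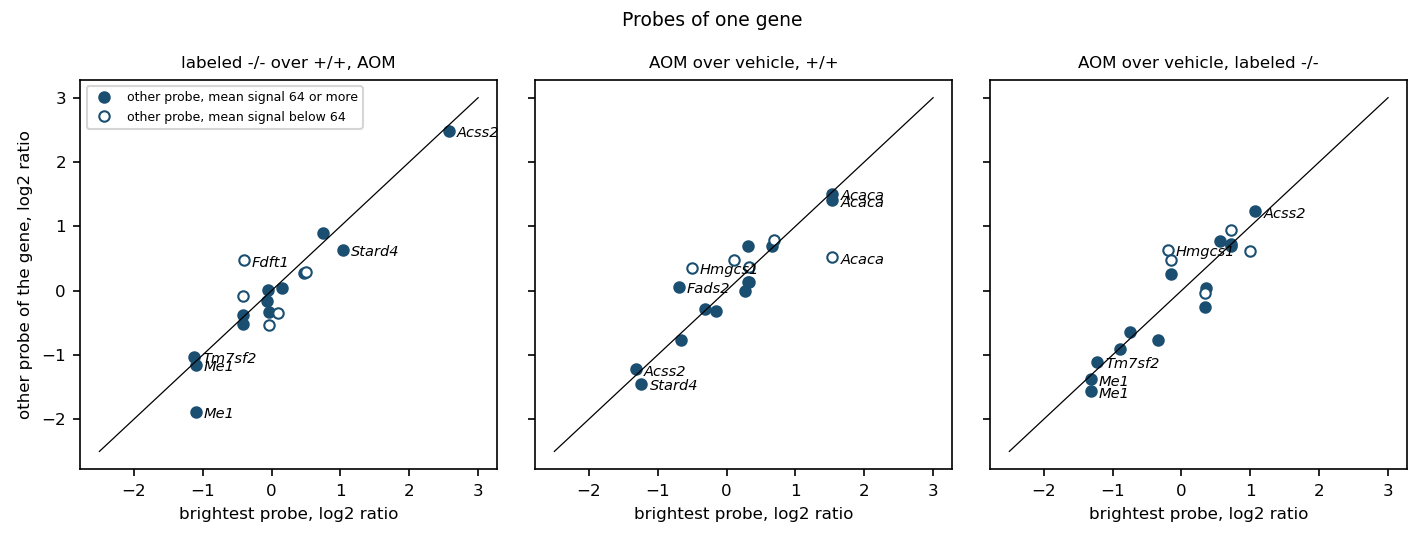
Log2 ratio of the brightest probe (horizontal axis) against that of each further probe (vertical axis) of the members with several probes, in 3 comparisons; open points are probes with a mean signal below 64, and the line marks equal ratios. Probes of Acss2, Me1 and Tm7sf2 lie on the same side of 0 in the comparisons where they are labeled, and the dim probes of Fdft1, Hmgcs1 and Acaca lie away from the line.

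For 14 members the array held several probes. Between the AOM pools, 15 of 18 further probes had the sign of the brightest one, with a median absolute difference of 0.17 on the log2 scale and a largest one of 0.88, for Fdft1. After AOM the sign was shared by 15 of 18 probes in Pla2g3+/+ and by 13 of 18 in the labeled pools, and with vehicle by 12 of 17. Fads1, Fasn, Scd2, Msmo1, Ebp, Insig1, Mvd and Elovl6 had 1 probe and no such check.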

How the data were processed

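Total RNA from mouse colon, pooled within each of 4 groups, was labeled with Cy3 (27.7 ng per pool) and hybridized to 4 arrays of 1 slide. The group of each array came from its label. Spot intensity was deposited as computed by Agilent Feature Extraction 11.5.1.1, subtracted for background and detrended per the file headers, with the software's call of a signal well above background, used as deposited. A second deposited table holds, as a ratio, the same signal over the array's 75th percentile, which was checked for every spot.

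Control spots and outlier spots were left out, replicate spots were averaged on the log2 scale (39423 probes), and the 75th percentile stated in the file header was subtracted. Names followed the file's gene name through RefSeq (GRCm38.p6, names only), with 31270 probes matched to 22289 genes. Probe coordinates are on mm9. A gene seen above background in a single array of a pair was given a bound for its dim side, and one seen in neither was given no ratio. No member needed a bound.

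Ratios are differences between 2 arrays, without a test. The fit was limma 3.58.1 in R 4.3.3, and it and the ratio code were tested on simulated data. The changes simulated for the fit were alike in both genotypes, so that test does not cover responses that differ between them. Tables used Python 3.11.15, pandas 2.3.3 and numpy 2.4.6, and figures matplotlib 3.10.9. The alternatives tried were scaling by the median, quantile normalization, normexp (offset 50) followed by quantile normalization, no scaling, a stricter filter (above background on both arrays), no filter, the mean over probes, the second brightest probe, the deposited ratios, other thresholds (1.5-fold and 4-fold), an intensity trend in limma, and motif matches before the start only.

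The members, 3 pathway lists and 12 marker lists (adipocyte, sebaceous, hepatocyte, acinar, smooth muscle, enteric neuron and glia, colonocyte, goblet, epithelium, macrophage, Wnt targets, proliferation) were chosen with earlier results of these data known. All members may be named, and of a pathway list the genes past 2-fold in a comparison, up to 4 with the highest mean signal. Some genes of these lists are not reported here.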

Additional observations from a re-analysis of the deposited data

Results flagged for a closer look

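Acss2 changed after AOM in opposite directions in the 2 genotypes, being lower in Pla2g3+/+ (log2 ratio of -1.32) and higher in the pools labeled Pla2g3-/- (1.07), a difference of 2.39 on the log2 scale. The difference was not tested, since each group had 1 array. Over all 16055 genes with both values, 371 were past 2-fold in opposite directions, and of the 31 members 1 was. Without scaling the log2 ratios of Acss2 were -0.30 in Pla2g3+/+, within 2-fold, and 1.91 in the labeled pools.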

How the results depend on the processing

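Of 20 ratios of a member past 2-fold, 9 stayed past it under all alternatives that gave a value and none of the 20 changed sign, and a further 22 passed 2-fold under an alternative, each of them without scaling. Quantile normalization moved the median log2 ratio of all genes after AOM by 0.17 in Pla2g3+/+ and 0.11 in the labeled pools, and leaving out the scaling moved it by 1.04 and 0.84. Relative to the median of all genes, the members lay at 0.30 and 0.06 with quantile normalization. Between the vehicle pools the members' median was 0.0417 with the mean over probes, and 1 member, Mvk, was higher at 1.5-fold. Between the AOM pools, 1 member was higher and 5 were lower without scaling (median -0.21), 1 was higher with normexp, with the mean over probes and with the second probe, 6 were higher and 6 lower at 1.5-fold, and 1 and 0 at 4-fold. After AOM in Pla2g3+/+, 3 were lower with quantile normalization (median 0.29), 14 were higher and 0 lower without scaling (0.97), 1 was lower with normexp (0.23), 1 was higher and 2 lower with the second probe (0.0954), 7 were higher at 1.5-fold, and 0 passed 4-fold in either direction. After AOM in the labeled pools, 2 were lower with quantile normalization (median 0.0925), 12 were higher and 0 lower without scaling (0.70), 1 was lower with normexp (0.0762), the median was 0.016 with the mean over probes, 1 was higher and 2 lower with the second probe (0.15), 5 were higher and 10 lower at 1.5-fold, and 0 passed 4-fold. The median difference between the changes was -0.40 without scaling. The counts and medians with the second probe cover only the 14 members that have one, not the whole list. For these 14, the brightest probe gave the same calls after AOM. They were Acaca higher and Stard4 and Acss2 lower in Pla2g3+/+, and Acss2 higher and Me1 and Tm7sf2 lower in the labeled pools. Between the AOM pools, Stard4 was within 2-fold with the second probe. The cause of the moves in the medians and in the other counts was not tested. No paired analysis was possible because each group had 1 array, so that groups shared fewer than 2 replicate numbers. With 1 pool per group, neither the spread between mice nor that between arrays is known, and a ratio near 2-fold cannot be told from one within it.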
